A study of Oryzias latipes with 50 samples.

Results

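Late winter, sampled in February and March, was compared with midwinter, sampled in December and January, in the brain of medaka (Oryzias latipes), a small freshwater fish that breeds as days lengthen. The comparison takes every library labelled with one of these 4 months, which gives 16 of the 50 libraries in the series. Midwinter holds 8 libraries from 4 dates, December 25 2015, January 25 2016, December 19 2016 and January 20 2017. Late winter holds 8 libraries from the other 4 dates, February 22 2016, March 23 2016, February 14 2017 and March 16 2017. Each date has 2 libraries, so each winter contributes 2 dates to each period.

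All fish lived outdoors under natural conditions in Okazaki, Japan, and per the labels the groups differ in date alone. The tissue is a block of ventral telencephalon, hypothalamus and pituitary, taken near 8 pm on each date. Day length, calculated from the date and the latitude, was 9.8 hours on both December dates. It was 10.28 and 10.15 hours in January, 11.16 and 10.88 hours in February, and 12.25 and 11.95 hours in March. Because collection was tied to the clock, the time since sunset shortened, from 3.25 and 3.29 hours in December to 1.91 and 2.01 hours in March. Day length, time since sunset, temperature and date cannot be told apart in this design. Neither the sex of the fish nor the number of fish in a library is given by the labels, so p-values from date means measure only the spread between dates.

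In fish that breed in spring, lengthening days and warming water act on the hypothalamus, where gonadotropin-releasing hormone neurons reach the pituitary directly. The pituitary then makes follicle-stimulating hormone and luteinizing hormone, each a pair of a shared alpha subunit and a beta subunit of its own. Sex steroids feed back on both, and in fish the radial glia of the brain make estrogen with an aromatase of their own. Brain tissue of a fish in cold water also carries chaperones and cold-inducible proteins, and a circadian clock whose genes are set by light and temperature.

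Values are FPKM, the fragment abundance per transcript length and library size, as the authors deposited them. Levels are means of the 2 libraries of a date, with the SD over the 4 dates of a period. Changes are differences of log2(FPKM + 1) with their standard error, late winter minus midwinter, from a limma model with the winter as a term. The FPKM sum over 23455 genes ran from 302721 to 338583 per library. The relative depth, read from the smallest steps in the values, ran from 0.951 to 1.033 in midwinter and from 0.945 to 1.069 in late winter. The median correlation across genes was 0.982 between the libraries of a date and 0.96 between winters for the same period. Within a winter it was 0.97 both inside a period and between periods. Genes are not independent, so these are descriptions.

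Markers of the midbrain and hindbrain differed between the winters. The hindbrain and midbrain peptide gene gnrh2 stood at 18.3 to 24.9 FPKM on the 4 dates of the first winter and at 0 to 0.155 on those of the second. Relaxin 3, rln3, made by neurons of the midbrain and hindbrain, stood at 85.2 to 140.4 and at 0.72 to 1.67 FPKM, and the midbrain factor gene pax7 at 4.54 to 6.41 and 0.53 to 0.965. The summed level of the 16 midbrain and hindbrain markers ran from 73.92 to 84.0 FPKM in the first winter and from 36.3 to 43.01 in the second. Both periods hold dates of both winters, and the winter is a term of the model. The labels do not say whether the block was cut alike in both winters, and a difference in dissection cannot be told apart from one between the winters, for gnrh1 and kiss-1 too. The part of this difference in the results was not tested. In a tissue block, fewer cells of a type and less RNA per cell cannot be told apart.

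No gene passed the test between late winter and midwinter. Of 16232 genes tested, limma called 0 (0%) after Benjamini-Hochberg adjustment, with a smallest adjusted p of 0.403. At an unadjusted p under 0.05 it gave 1558 genes, 756 higher in late winter (4.66%) and 802 lower (4.94%). In 222 genes (1.37%) all 4 late winter dates lay above every midwinter date, and in 306 (1.89%) all lay below. Only 21 genes differed by at least 2-fold in FPKM + 1, and the median over all genes was 0.01 on the log2 scale. The added 1 shrinks the ratios of genes at a few FPKM or less, so the count leaves out some of those. With date as a random effect over 16 libraries 10 genes were called, and without both February 2017 libraries 21 were. Genes at an unadjusted p under 0.05 numbered 2825 without February 2017 and 2181 without December 2015. Without March 2017 they numbered 853, the lowest of any date left out, and 0 were called. Calls made without February 2017 thus depend on which date is left out. Each adjusted p given for a gene is limma's, over all genes tested, and no gene named passed between the periods in the main fit. The random effect fit counts libraries as samples and shares a correlation within dates across all genes. Its p-values thus do not rest on the spread between dates alone. Ranges of adjusted p over alternatives also include a fit that treats libraries of a date as independent, and a slope on day length given further below. Counts over a pathway are of genes at an unadjusted p under 0.05. Between the periods they are read against the shares of all genes just given, and for a monthly step against the shares of that step.

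The gonadotropin genes of the pituitary had higher means in late winter, with fshb, the beta subunit of follicle-stimulating hormone, the clearest of them. In the 8 midwinter libraries fshb ranged from 42.2 to 129 FPKM around a median of 99.5, and in the 8 late winter libraries from 133 to 300.1 around 175. No late winter library reached down to the highest midwinter library. By date it stood at 52 in December 2015 and 80 in January 2016, then at 204 in February and 145 in March 2016. In the second winter it stood at 110.0 and 117, then at 159.5 and 274 FPKM. The mean was 89.8 ± 29.9 FPKM in midwinter and 196 ± 57.8 in late winter (SD, 4 dates each). The difference was 1.15 ± 0.21 on the log2 scale, a 2.23-fold ratio, with an adjusted p of 0.403. Without both February 2017 libraries it was 1.36 ± 0.16 and was called (adjusted p = 0.0317 by limma). Over its 33 alternatives limma's adjusted p ran from 0.00993 to 0.922. The lowest came from the fit that treats libraries of a date as independent.

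The shared alpha subunit gene cga ranged from 359 to 555 FPKM over midwinter libraries (median 496) and from 441 to 1246 over late winter libraries (median 746). The date means did overlap: March 2016, at 501 FPKM, lay below both January dates, at 534 and 526. The difference was 0.70 ± 0.24 (adjusted p = 0.473), and it was nearly the same in both winters, at 0.69 and 0.72. The luteinizing hormone beta subunit gene lhb ranged from 6.75 to 16.4 FPKM (median 9.99) in midwinter and from 4.88 to 39.5 (median 19.9) in late winter. Its level was uneven over the late winter dates, at 35.4 in February 2016, 16.6 in March 2016, 11 in February 2017 and 31.2 in March 2017. The February 2017 mean thus lay inside the range of midwinter date means, 8.17 to 14 FPKM. Its libraries stood at 4.88 and 17.12 FPKM, 1 below and 1 above all midwinter libraries. The difference was 0.91 ± 0.37 (adjusted p = 0.508), with 1.45 in the first winter and 0.38 in the second.

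The thyrotropin-like subunit went the other way. The gene annotated as thyrotropin subunit beta-like, LOC101171658, ranged from 10.8 to 40.9 FPKM in midwinter libraries (median 20) and from 8.3 to 22.6 in late winter libraries (median 14.9), a difference of -0.65 ± 0.29 (adjusted p = 0.521). Its December dates stood apart, at 31.6 and 31.2 FPKM, against 14.2 and 16.8 in January. From there it was 18.3 and 16.6 in February and 9.11 and 12.3 in March. Part of the fall was thus already present in January, and March lay lower again. The January step was -0.96 ± 0.12 (adjusted p = 0.219 by limma) and the March step -0.68 ± 0.12 (adjusted p = 0.106). The periods overlapped. The tshb gene itself (LOC105354380) and the receptor gene tshr lay under the filter of a mean of 1 FPKM and were not tested. The tshb gene stood between 0.18 and 1.44 FPKM on all 8 dates.

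The other hormones gave no clear difference. Prolactin, prl1 (LOC101172582), which acts on salt and water balance in fish, ran from 637 to 1192 FPKM over midwinter dates and from 819 to 2005 over late winter dates (0.46 ± 0.21, adjusted p = 0.525). Growth hormone, gh (LOC101171460), ran from 834 to 1507 and from 442 to 1174 FPKM (-0.46 ± 0.30, adjusted p = 0.619). The precursor of corticotropin and melanotropin, pomc, differed by -0.18 ± 0.16 and somatolactin, smtl (LOC100049402), a hormone found in fish, by 0.01 ± 0.33. Of the 8 hormone genes tested, 3 were higher and 1 lower at an unadjusted p under 0.05, with a median of 0.24 on the log2 scale. The summed level of all 12 hormone genes matched ran from 2563 to 3399 FPKM in midwinter and from 2427 to 4177 in late winter, so the total overlapped between periods. Of 11 pituitary identity factor genes none passed even the unadjusted threshold in either direction, and their median was -0.04. Among them were pitx1 (-0.13) and lhx3 (-0.17), which set the fate of pituitary cells.

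**Figure D1:**
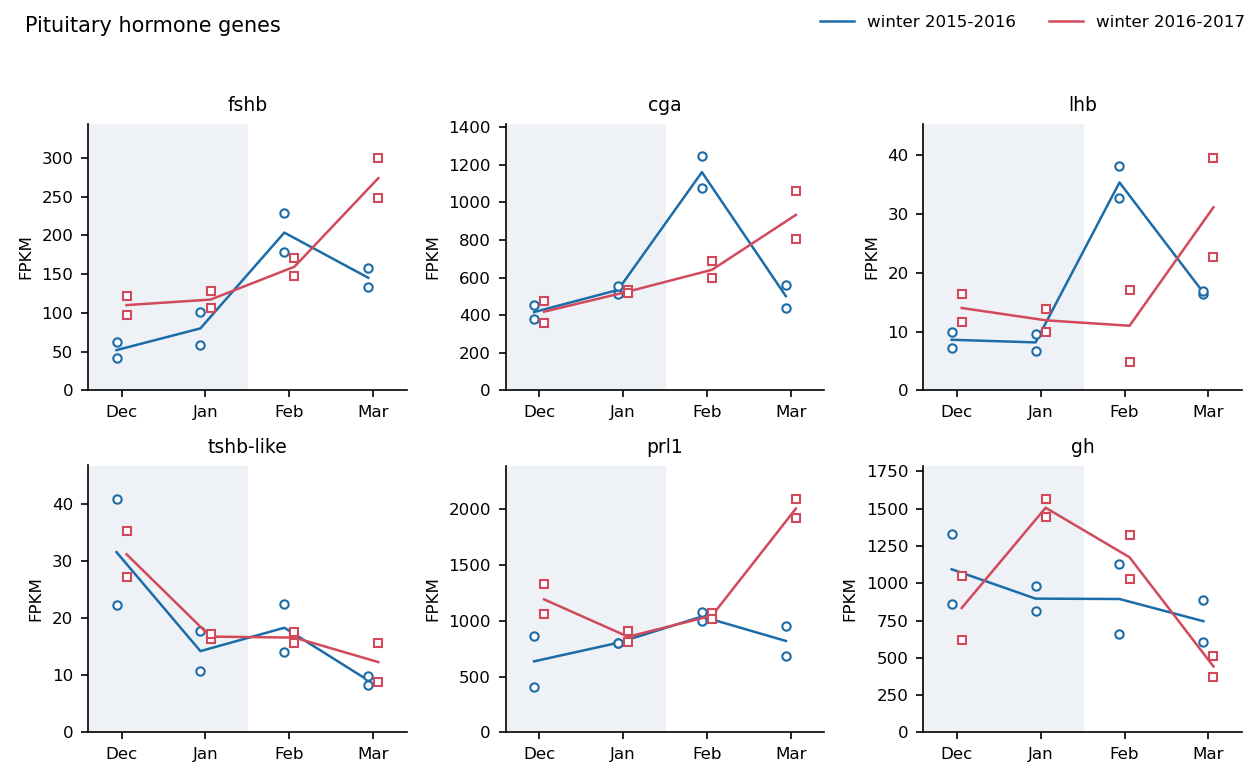
FPKM of pituitary hormone genes in each library (points) by month, with lines through the date means, for the first winter (blue circles) and the second (red squares); the shaded months are midwinter. For fshb all late winter libraries lie at 133 FPKM or more and all midwinter libraries at 129 or less. For lhb the February 2017 mean is 11 FPKM, from libraries at 4.88 and 17.12.

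Brain aromatase was higher in late winter as well. The gene cyp19b, whose enzyme turns androgen into estrogen in radial glia, ranged from 69.1 to 140.3 FPKM over midwinter libraries (median 97) and from 128 to 289 over late winter libraries (median 188). The date means did not overlap. They were 82.6, 78.3, 192 and 163 FPKM from December 2015 to March 2016, and 122, 129, 131 and 274 a year later. In the second winter February thus stood at about the January level, and March stood far above both. The difference was 0.86 ± 0.21, a 1.82-fold ratio (adjusted p = 0.445). Without both February 2017 libraries it was 1.13 ± 0.08 and was called (adjusted p = 0.00314 by limma), against a range of 0.00314 to 0.922 over its 33 alternatives.

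Of the 14 sex steroid genes tested, 3 were higher and none lower at an unadjusted p under 0.05, with a median of 0.03. Beside cyp19b these were cyp17a2, a steroid hydroxylase gene, and hsd17b3, whose enzyme makes testosterone in mammals. The first ran from 3.29 to 5.29 FPKM over midwinter dates and from 4.37 to 7.59 over late winter dates (0.51 ± 0.16, adjusted p = 0.461). For hsd17b3 the ranges were 3.09 to 4.04 and 3.71 to 5.44 (0.29 ± 0.12, adjusted p = 0.515). Both overlapped between periods, cyp17a2 only between dates of different winters. The estrogen receptor gene esr1 stood at 2.9 to 3.85 and 2.29 to 4.16 FPKM (-0.09 ± 0.10), and the progesterone receptor gene pgr differed by 0.25 ± 0.13.

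The hypothalamic genes that act upstream of the gonadotropins gave smaller or more uneven differences. The releasing hormone gene gnrh1 stood at 2.31 to 5.8 FPKM in midwinter and 2.53 to 7.4 in late winter (-0.03 ± 0.16, adjusted p = 0.957). Its level differed more between winters than between periods, with all first-winter dates at 3.96 or more and all second-winter dates at 2.54 or less. The paralogue gnrh3 ranged from 4.72 to 17.7 FPKM over midwinter libraries and from 0 to 18.4 over late winter libraries (-0.56 ± 0.45). Its March 2017 libraries were listed at 5.3 and 0 FPKM, and the difference was -0.23 without the one at 0 and 0.03 without both. Kisspeptin genes, which drive the releasing hormone neurons in mammals, gave -0.20 ± 0.19 for kiss-2 and 0.32 ± 0.12 (adjusted p = 0.504) for kiss-1. The latter stood at 0.34 FPKM or less on every date of the second winter, where gnrh2 was also near 0. Of the 10 genes tested in the group of releasing hormone, kisspeptin and RFamide genes, 1 was higher and none lower at an unadjusted p under 0.05, with a median of -0.05.

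Thyroid hormone and photoperiod genes gave small differences. Deiodinases switch thyroid hormone on and off in the brain; dio2, which activates it, stood at 3.85 to 4.72 FPKM in midwinter and 2.78 to 4.49 in late winter (-0.22 ± 0.13, adjusted p = 0.599). The inactivating enzyme gene dio3 stood at 2.47 to 6.18 and 1.56 to 5.55 FPKM (-0.19 ± 0.20, adjusted p = 0.745). The 1 gene of 16 tested past the unadjusted threshold was dio1, at -0.33 ± 0.12 (adjusted p = 0.504), and none was higher. The median was -0.11. The transporter gene for monocarboxylate transporter 8 (LOC101174678), which carries thyroid hormone, differed by 0.17 ± 0.08 and the receptor gene thra by -0.23 ± 0.11.

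Few neuropeptide genes differed. Of 37 hypothalamic neuropeptide genes tested, 1 was higher and 1 lower at an unadjusted p under 0.05, with a median of -0.01. The higher one was a neuropeptide B gene, npb. It stood at 38.7, 36, 39.8 and 60.6 FPKM over the first winter and at 30.9, 36, 40 and 59.3 over the second. The groups did not overlap, although the March values alone lay far from the rest (0.45 ± 0.16, adjusted p = 0.477). The lower one was neuromedin B, nmb (-0.15 ± 0.06, adjusted p = 0.516). Among peptides of arousal and feeding, hcrt differed by 0.25 ± 0.15 and a pro-MCH-like gene (LOC101161984) by 0.34 ± 0.20.

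Among clock genes, some output factors of the PAR bZIP family stood lower in late winter: 2 tef copies and an hlf gene, which are among the clock genes of smallest p. The thyrotroph embryonic factor gene LOC101164258 (tef), a light-responsive transcription factor in fish, ranged from 68.4 to 82 FPKM over midwinter libraries (median 76.3) and from 44.1 to 61.6 over late winter libraries (median 53.6). Every late winter library lay below every midwinter library. The date means were 76, 75.2, 53 and 53.8 in the first winter and 79.5, 74.6, 59.2 and 44.3 in the second. The difference was -0.54 ± 0.09 (adjusted p = 0.403), and it was called once date entered as a random effect (adjusted p = 0.00761 by limma), in a range of 0.00348 to 0.858 over its 33 alternatives. The lowest of these came from the fit that treats libraries of a date as independent. Without both February 2017 libraries the difference was -0.61 ± 0.08 (adjusted p = 0.0392).

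A further tef copy, LOC101172818, differed by -0.36 ± 0.09 (adjusted p = 0.461). Its dates ran from 68.2 to 97.4 FPKM in midwinter and from 53 to 69 in late winter, and overlapped only because December 2016 lay below March 2016. The hepatic leukemia factor gene LOC101163688 (hlf), of the same family, differed by -0.22 ± 0.08 (adjusted p = 0.504). The remaining tef copy, LOC101159928, and the gene with the symbol hlf differed by only -0.02 and 0.04. The repressor bhlhe41, also called dec2, was the 1 clock gene higher in late winter at an unadjusted p under 0.05. It ranged from 47.7 to 63.7 FPKM over midwinter libraries (median 49.7) and from 56.8 to 71.3 over late winter libraries (median 64.9). Libraries of the periods overlapped but date means did not, at 48.3 to 59.9 against 61.4 to 71.1 (0.30 ± 0.07, adjusted p = 0.426). Of 37 clock genes tested, 1 was higher and 4 were lower at an unadjusted p under 0.05, with a median of -0.13. The copies of a gene can share reads, and values of the cry1, per2 and tef copies rest on how the authors divided them.

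The core repressors cry1 and per2 had high and low dates inside each period. The cry1 copy LOC101160902 stood at 27.6, 53.1, 48.8 and 22.7 FPKM from December to March of the first winter, and at 35, 49.9, 53.8 and 30 in the second. January and February were high and December and March low in both winters, so the difference between periods was only -0.13 ± 0.29 (adjusted p = 0.883). The per2 copy LOC101161338 stood at 30.3, 66.2, 34.2 and 21.4, then at 48.2, 69.8, 59.6 and 26.7 FPKM. It was highest in January and lowest in March of both winters (-0.62 ± 0.30, adjusted p = 0.535). The cry2 gene LOC101173389 stood at 15.2, 23.4, 17.2 and 13.3, then at 19.5, 21.6, 21.6 and 14.2 FPKM (-0.26 ± 0.16). It was lowest in March of both winters, and in the second winter January and February were level. The other cry1 copies differed by -0.13 (LOC101164536), -0.25 (LOC101167667) and -0.36 (LOC101174986), and the per1 gene by -0.06. The gene with the symbol per2 differed by -0.17.

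**Figure D2:**
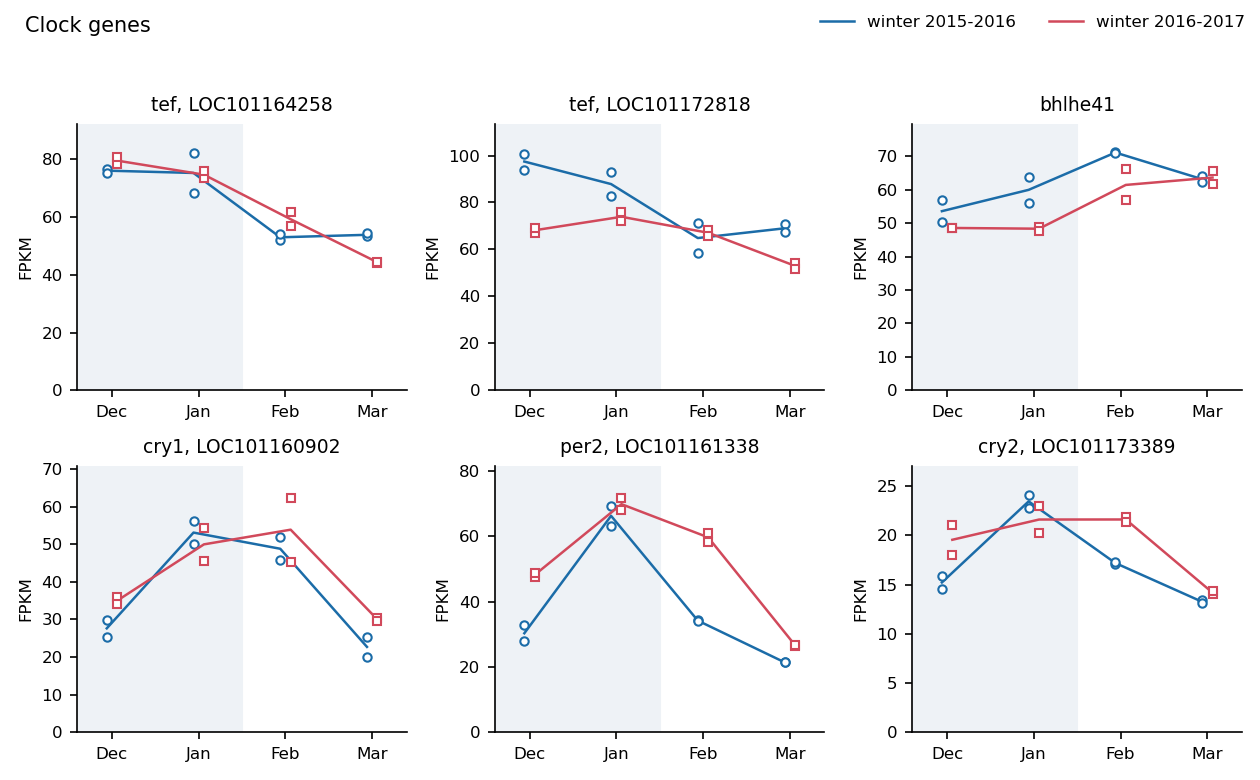
FPKM of clock genes in each library by month, drawn as for the hormones. The upper row shows tef and bhlhe41, whose largest monthly step in the fit over both winters was from January to February. In the second winter both tef copies fell further, from 59.2 to 44.3 and from 67.1 to 53 FPKM between February and March. The lower row shows cry1, per2 and cry2, whose dates in both periods include high and low values. The cry1 copy stood at 53.1 FPKM in January 2016 and 22.7 in March 2016.

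Some chaperone and cold-inducible genes stood below their midwinter level. The cold-inducible RNA-binding protein gene cirbp, which binds transcripts in the cold, was at 1052, 1166, 946 and 823 FPKM in the first winter and at 949, 933, 911 and 616 in the second. Both March dates were the lowest of their winter (-0.33 ± 0.13, adjusted p = 0.508). Within each winter both late winter dates lay below both midwinter dates. The periods overlapped only across winters, with February 2016 at 946 FPKM above January 2017 at 933. An inducible heat shock 70 kDa protein 1 gene, LOC111947723, stood at 2.85, 15.7, 1.73 and 0.585 FPKM, then at 4.98, 7.18, 6.16 and 0.805. Its difference was -1.50 ± 0.49 (adjusted p = 0.461), and in each winter its date mean was highest in January and lowest in March. The libraries of a date spread widely, at 8.56 and 22.8 FPKM in January 2016 and 9.12 and 5.24 in January 2017. In February 2017 they stood at 2.26 and 10.05, so the January high of the second winter was not clear by library. The heat shock factor gene hsf1, which switches on chaperones, stood at 20.5 to 23.8 FPKM in midwinter and 18.3 to 19.8 in late winter, without overlap (-0.19 ± 0.07, adjusted p = 0.484). Of 30 such genes tested, none was higher and 4 were lower at an unadjusted p under 0.05, with a median of -0.13.

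The transporter gene slc16a1, for monocarboxylates such as lactate, showed the largest negative difference of all genes tested. It ranged from 76.3 to 128 FPKM over midwinter libraries (median 91.8) and from 16.1 to 73 over late winter libraries (median 29.1). Every late winter library lay below every midwinter one. The date means were 100.2, 119, 25.7 and 32.6 FPKM, then 83.8, 82, 62.5 and 19.5, so the low level was reached by February in the first winter and by March in the second. The difference was -1.56 ± 0.30, a 2.94-fold ratio (adjusted p = 0.403). It was called without both February 2017 libraries (-1.95 ± 0.10, adjusted p = 0.000448) and in the random effect model of date (adjusted p = 0.0186), both by limma, in a range of 0.000448 to 0.922 over its 33 alternatives.

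The gene belongs to a set of winter genes found in the summer and winter dates of the same series, so the set is not independent evidence of a direction here. Of its 9 members tested, none was higher and 2 were lower, with a median of -0.31. The other one was jpt2, a microtubule-associated protein gene, at 218, 302, 179 and 121 FPKM and at 259.9, 303, 269 and 135 (-0.67 ± 0.22, adjusted p = 0.461). In contrast mocs2, of molybdenum cofactor synthesis, stood at 11 to 22.1 FPKM in midwinter and 12.2 to 35.2 in late winter (0.52 ± 0.26).

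Lipid genes were mixed. Of 21 genes of fatty acid synthesis and desaturation, 5 were higher and 2 lower at an unadjusted p under 0.05, with a median of 0.10. A fatty acid desaturase 2-like gene, LOC101156814, of polyunsaturated fatty acid synthesis, stood at 102 to 126 FPKM in midwinter and 113 to 154 in late winter (0.29 ± 0.09, adjusted p = 0.461). The ATP-citrate synthase gene LOC101170190, which supplies acetyl-CoA, differed by 0.28 ± 0.09 and the regulator gene srebf1 by 0.24 ± 0.09. An acyl-CoA desaturase gene, LOC105353580, which puts the first double bond into saturated chains, was the opposite. It stood at 51.9, 78.9, 43 and 31.2 FPKM, then at 54.5, 59.1, 54.6 and 30.5 (-0.63 ± 0.20, adjusted p = 0.461). Of 24 cholesterol genes 1 was higher, a low-density lipoprotein receptor gene (LOC101157458, 0.51 ± 0.21), and 2 were lower, dhcr7 and pmvk, each at -0.21.

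Of 20 hypoxia and glycolysis genes, none was higher and 4 were lower at an unadjusted p under 0.05, with a median of -0.12. A glucose transporter gene, LOC101159343, stood at 24.6 to 33.5 FPKM in midwinter and 18.1 to 26.2 in late winter (-0.33 ± 0.08, adjusted p = 0.429). The pyruvate kinase gene LOC101170748, for the last step of glycolysis, stood at 450.5 to 559 and 363 to 447 FPKM without overlap (-0.28 ± 0.11, adjusted p = 0.508). The lactate dehydrogenase B gene LOC101165776 differed by -0.21 ± 0.09 and bnip3 by -0.18 ± 0.07. With quantile normalization 2 of the 20 were lower at that threshold. Of 57 oxidative phosphorylation genes 1 was higher, atp5md (0.18 ± 0.08), and 1 lower, sdhd (-0.18 ± 0.07), with a median of 0.04.

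Of 7 creatine genes tested, 2 were higher and none lower at an unadjusted p under 0.05, with a median of 0.32. The summed level of the list overlapped, at no more than 247 FPKM in midwinter and at 219.9 to 281 in late winter, with February 2017 the lowest date. The 2 genes encode the enzymes of creatine synthesis: gatm stood at 14.6 to 18.5 FPKM in midwinter and 17.5 to 24.8 in late winter (0.37 ± 0.11, adjusted p = 0.461), and gamt at 2.98 to 4.78 and 4.42 to 7.27 (0.47 ± 0.16, adjusted p = 0.461). Of 20 antioxidant genes 2 were higher and 2 lower. The cystine/glutamate transporter gene LOC101160523, which feeds glutathione synthesis, stood at 5.4 to 9.12 and 8.88 to 13.6 FPKM (0.60 ± 0.16, adjusted p = 0.461), and thioredoxin, txn, differed by 0.25 ± 0.07. Peroxiredoxin-6 (LOC101174176, -0.42 ± 0.16) and keap1 (-0.38 ± 0.16), the sensor that restrains the antioxidant factor NRF2, were lower.

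Of 11 interferon and antigen presentation genes 3 were higher and 1 lower, with a median of 0.16. The interferon regulatory factor 1 gene LOC101163430 stood at 0.47 to 1.06 FPKM in midwinter and at 1.12 to 1.88 in late winter, without overlap (0.51 ± 0.15, adjusted p = 0.461). The antiviral Mx gene LOC101163162 (0.56 ± 0.19) and the immunoproteasome gene psmb8 (0.50 ± 0.17) were likewise low in absolute level, under 3 FPKM on all dates. Beta-2-microglobulin, LOC101174715, went the other way (-0.25 ± 0.11, adjusted p = 0.521). Of 23 insulin and growth genes 1 was higher, the binding protein gene igfbp2, at 6.94 to 13.8 and 8.88 to 20 FPKM (0.56 ± 0.16, adjusted p = 0.461), and 1 lower, the leptin receptor gene lepr (-0.23 ± 0.09). None of 8 proliferation genes and none of 66 ribosomal protein genes passed the unadjusted threshold in either direction, with medians of -0.09 and -0.04. Of 18 immediate early genes, which respond to neuronal activity, 1 was lower, egr3 (-0.44 ± 0.19, adjusted p = 0.521), and the median was -0.01. The egr3 difference was -0.28 without 1 February 2017 library, which stood at 1.8 FPKM. Of 5 inositol and osmolyte genes tested 1 was lower, the inositol-forming enzyme gene isyna1 (-0.42 ± 0.15, adjusted p = 0.504), and none higher, with a median of 0.11.

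**Figure D3:**
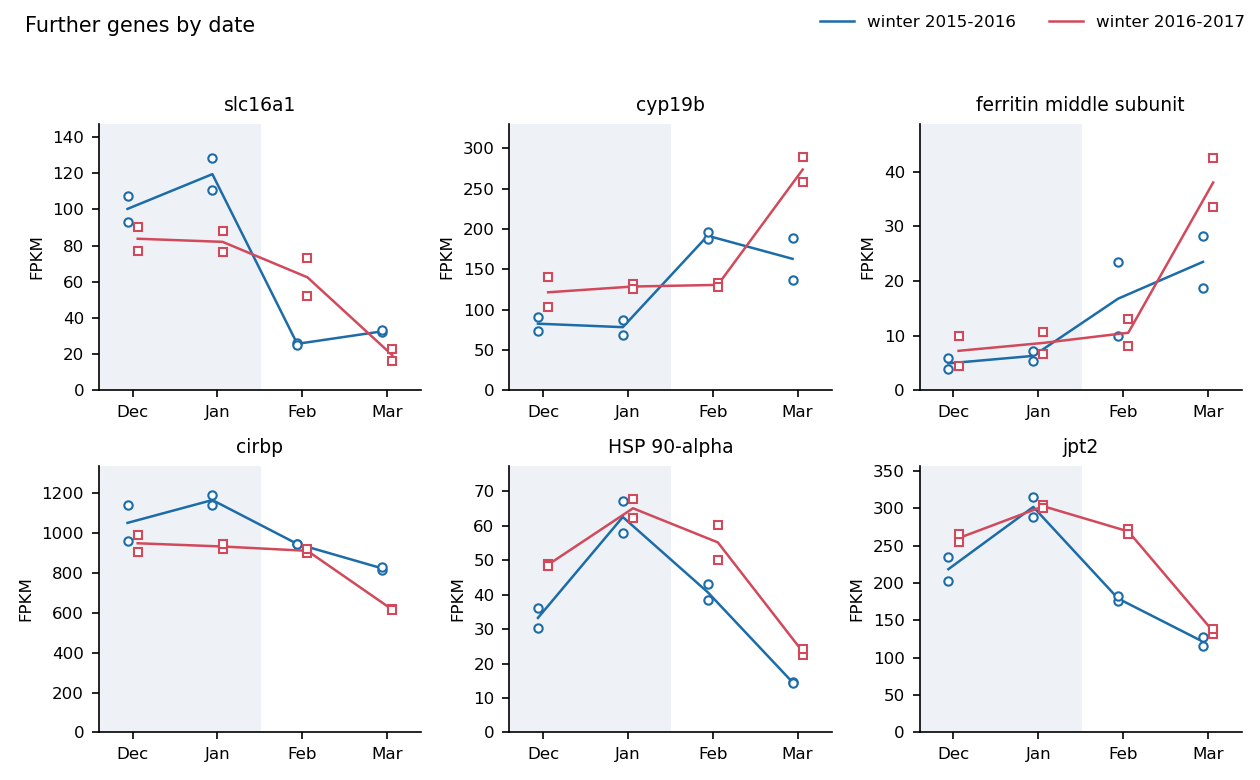
FPKM of 6 further genes in each library by month, drawn as for the hormones, with slc16a1, cyp19b and a ferritin gene in the upper row and cirbp, an HSP 90-alpha gene and jpt2 in the lower. All late winter libraries of slc16a1 lie at 73 FPKM or less against at least 76.3 in midwinter, while the HSP 90-alpha gene peaks in January at 62.6 and 65.1 FPKM.

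Markers of cell types gave small differences, and their summed levels overlapped between periods in each list named here. Neuron markers summed to 1501 to 1699.7 FPKM over midwinter dates and 1449 to 1791 over late winter dates. Of 20 tested 3 were higher and none lower, with a median of 0.11: elavl4 (0.32 ± 0.10), gap43 (0.32 ± 0.09), a growth cone protein gene, and slc17a6 (0.29 ± 0.11), the glutamate transporter gene of excitatory neurons. Radial glia and astroglia markers summed to 1683 to 2666 and 1750.5 to 2957 FPKM, with 2 of 14 higher, 1 lower and a median of 0.01. A glial fibrillary acidic protein gene, LOC101173548, stood at 94.8, 84.5, 148 and 164 FPKM, then at 53.3, 50.8, 53.1 and 91.5 (0.61 ± 0.16, adjusted p = 0.461). It was high in February only in the first winter, as cyp19b was, and without both February 2017 libraries it was called (0.80 ± 0.07, adjusted p = 0.013 by limma, in a range of 0.013 to 0.922 over its 33 alternatives). The glial lipid carrier gene fabp7 differed by 0.47 ± 0.16 (adjusted p = 0.471), and the glial factor gene sox9 by -0.43 ± 0.12 (adjusted p = 0.461).

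Oligodendrocyte markers summed to 343 to 695 FPKM in midwinter and 327 to 697 in late winter, with 1 of 15 higher, ugt8, a gene of myelin lipid synthesis (0.70 ± 0.21, adjusted p = 0.461). Microglia and macrophage markers summed to 704 to 1048 and 679 to 977 FPKM. Of 15, ptprc (0.45 ± 0.14) and plastin-2 (LOC101162720, 0.30 ± 0.12) were higher and the microglial receptor gene p2ry12 (-0.33 ± 0.09, adjusted p = 0.461) was lower. Of 16 endothelium and vessel markers 1 was higher and 3 lower, among them pdgfrb of pericytes (-0.35 ± 0.11, adjusted p = 0.461). Of 8 markers of meninges, cartilage and bone, 3 were higher and none lower, among them col1a2, at 7.29 to 10.8 and 10.9 to 15.4 FPKM (0.38 ± 0.11, adjusted p = 0.461). Their sum ran from 29.9 to 37.8 and from 36.7 to 43.9 FPKM.

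Blood markers summed to 861 to 2093 FPKM in midwinter and 918 to 1152 in late winter, with none of 11 higher and 2 lower. These were epb41, a membrane skeleton gene also used outside blood (-0.43 ± 0.08, adjusted p = 0.403), and a hemoglobin alpha gene, gb (-0.66 ± 0.28). The hemoglobin gene stood at 772 FPKM in December 2016 against 246 to 444 on the other dates. Markers of the pituitary (3 of 11 higher, all hormone genes), hypothalamus (1 of 17 lower, arx), telencephalon (0 of 10) and midbrain and hindbrain (0 of 5) gave medians of 0.01, 0.02, -0.11 and 0.08. The retina and pineal list had 2 tested members and the cilia and skeletal muscle lists 1 and 3, none past the unadjusted threshold, and the rod opsin gene rho stayed under 0.05 FPKM on all dates. On every date the summed level of pituitary markers was at least 2435 FPKM, as the labelled tissue would hold, and that of hypothalamus markers at least 399. The hormone gene pomc is counted in both sums. It stood at 142 FPKM in March 2016, the date of the lowest hypothalamus sum, so that sum is not of the hypothalamus alone.

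Each winter was also tested apart, with 2 dates against 2 and a spread pooled over both winters. In the first winter limma called 0 genes (0%), with 777 at an unadjusted p under 0.05, of which 422 (2.6%) were higher and 355 (2.19%) lower. In the second it called 0 (0%), with 692 at that threshold, 331 (2.04%) higher and 361 (2.22%) lower, or 405 and 293 under median ratio scaling. The first winter gave 361 higher and 419 lower under that scaling, so neither winter's majority was stable. In all 4.79% and 4.26% of genes were at that threshold, no more than it lets through by chance. With no filter on low values the first winter gave 3 calls, and with libraries as separate samples and a replicate block 14 and 1. Across 16232 genes the changes of the winters, which share no library, had a Pearson correlation of 0.373, and 63.9% of genes had the same sign in both. Genes are not independent, so this describes the table and is no test.

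In several named genes both winters gave like values. The tef gene LOC101164258 differed by -0.49 ± 0.13 and -0.58 ± 0.13, cga by 0.69 ± 0.37 and 0.72 ± 0.37, and cirbp by -0.32 and -0.33. The first winter showed the larger difference for fshb (1.43 ± 0.29 and 0.88 ± 0.29), cyp19b (1.12 ± 0.29 and 0.60 ± 0.29), slc16a1 (-1.88 ± 0.43 and -1.24 ± 0.43) and lhb. The test of the difference between winters did not pass for these, with an adjusted p of 1 for each. Over all genes that test called 0 (0%). At an unadjusted p under 0.05 it gave 323 genes (1.99%), fewer than that threshold lets through by chance. The change was higher in the second winter in 133 of them (0.819%) and lower in 190 (1.17%), or in 169 and 153 with quantile normalization.

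Some genes had unlike values by winter, though no such difference was called. The growth-restraining gene tob1 stood at 98.7, 119, 66.1 and 66.3 FPKM in the first winter. In the second it stood at 80.9, 86.2, 76.2 and 80. The change was -0.70 and -0.10 (adjusted p of the difference = 1, at an unadjusted p under 0.05). The co-chaperone gene dnajb1 gave -0.72 and -0.06 and egr3 -0.03 and -0.85, on the same footing. For egr3 the February 2017 libraries stood at 5.81 and 1.8 FPKM, so its second-winter value leans on 1 library. The releasing hormone gene gnrh3 gave 0.03 and -1.15, the latter with a March 2017 library listed at 0, and was not under the unadjusted threshold.

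**Figure D4:**
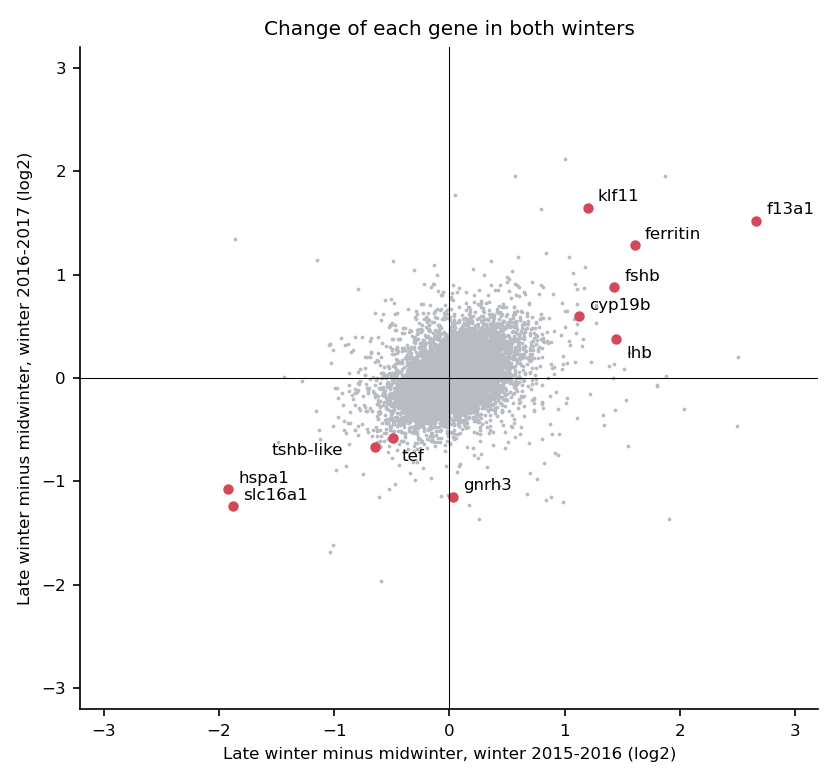
Late winter minus midwinter on the log2(FPKM + 1) scale in the first winter (horizontal axis) and the second (vertical axis), 1 point per gene for 16232 genes, with named genes marked. The cloud is elongated along the diagonal (r = 0.373), with fshb and cyp19b higher and slc16a1 lower in late winter in both winters.

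Months of the same period differed as well, tested in a fit with a term for each month. January against December gave 2446 genes at an unadjusted p under 0.05, February against January 1458 and March against February 2971, against 1558 for late winter against midwinter. These counts come from fits of different form, and their order was not stable. Over all 25 dates January against December gave 944 and the periods 1031, and without both January 2016 libraries the numbers were 807 and 895. Without both February 2017 libraries the periods gave 2825, the January step 2786 and the March step 1719. No step had a called gene in limma (0%, 0% and 0%), with smallest adjusted p of 0.219, 0.341 and 0.106. The random effect model of date gave the steps 397, 4 and 1097 calls, and without both February 2016 libraries the March step had 62. Of the tested genes 5.37% were higher and 9.7% lower in January than in December, 5.57% and 3.41% in February than in January, and 9.18% and 9.12% in March than in February. The splits depend on scaling and on single dates. For January 871 higher and 1575 lower became 1153 and 1181 with quantile normalization, and for February 904 and 554 became 747 and 683. Without both February 2016 libraries the February split turned to 326 and 467, and without both February 2017 libraries the March split of 1490 and 1481 became 581 and 1138. The span across months inside a period enters the spread against which the periods were tested.

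In most genes the January and March steps ran in opposite directions, to a degree that depended on the dates paired. Across 16232 genes the January step and the March step, which share no date, had a Pearson correlation of -0.533, and 70.9% of genes had opposite signs. Within the first winter the correlation was -0.323 and within the second -0.316. Between the January step of the first winter and the March step of the second it was -0.522, and for the reverse pairing -0.189. Of the 1047 genes at an unadjusted p under 0.05 in both steps, 429 were higher in January and then lower in March, and 585 lower and then higher. Only 14 were higher and 19 lower in both. The 1047 genes were 42.8% of those in the January step and 35.2% of those in the March step.

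Clock genes were among those higher in January and lower in March. Of 37 clock genes, 15 were higher and none lower in January than in December at an unadjusted p under 0.05, against 5.37% and 9.7% of all genes, with a median of 0.20 on the log2 scale. In March, 2 were higher and 13 lower than in February, against 9.18% and 9.12% of all genes, with a median of -0.15. The cry1 copy LOC101160902 differed by 0.71 in January (adjusted p = 0.227), by -0.01 in February and by -0.94 in March (adjusted p = 0.106). The per2 copy LOC101161338 gave 0.81, -0.58 and -0.89, and cry2 0.37, -0.21 and -0.46. The list median was 0.31 for the January step of the first winter and 0.10 for that of the second, and -0.17 and -0.28 for the March steps. The time between sunset and collection shortened at each step, from 3.25 to 2.81, 2.34 and 1.91 hours in the first winter.

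Chaperones stood in a like order. Of 30 cold-inducible and chaperone genes, 9 were higher and none lower in January, against 5.37% and 9.7% of all genes. None was higher and 14 were lower in March, against 9.18% and 9.12% of all genes. The medians were 0.10 and -0.24. With quantile normalization 11 were lower in March. The HSP 90-alpha gene LOC101169506, the stress-inducible member of its family and chosen after its values were seen, stood at 33.3, 62.6, 40.7 and 14.6 FPKM and at 48.7, 65.1, 55.2 and 23.4. Its steps were 0.65 (adjusted p = 0.227), -0.42 (adjusted p = 0.518) and -1.31 (adjusted p = 0.106). A heat shock cognate 70 gene, LOC100125490, chosen the same way, gave 0.58, -0.41 and -1.05. The acyl-CoA desaturase gene LOC105353580 gave 0.35, -0.49 and -0.64, jpt2 0.34, -0.46 and -0.77, and the tachykinin gene tac3 0.50, -0.25 and -0.71. Neuropeptide genes as a list had 7 of 37 higher and none lower in January, and 2 higher and 7 lower in March, against the same shares of all genes.

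Immediate early genes ran in the opposite order. Of 18, none was higher and 6 lower in January, and 9 were higher and none lower in March, with medians of -0.34 and 0.40. Of all genes 5.37% were higher and 9.7% lower in January, and 9.18% and 9.12% in March, also for the markers below. By winter the list median was -0.53 and -0.21 for the January steps and 0.40 and 0.38 for the March steps. For the February steps it was 0.19 and -0.29, so in the second winter the list fell on into February. The AP-1 gene fosl2 stood at 13.4, 10.3, 12.3 and 16.6 FPKM and at 17.3, 14.8, 13.4 and 25.2, and its March step was 0.63 (adjusted p = 0.118). The gene ier2 had its January low in the first winter above all, where it stood at 16, 5.12, 12.9 and 24.2 FPKM, against 16.1, 13.2, 15.4 and 16.1 in the second. Neuron markers had 10 of 20 higher and none lower in March, with a median of 0.23. Oligodendrocyte markers had 6 of 15 lower in January and 5 higher and 2 lower in March; a proteolipid protein gene, LOC101173373, gave -0.59 in January and 0.72 in March. Of 66 ribosomal protein genes 10 were lower in March, but with quantile normalization none was lower and 1 higher. The level of these markers moves beside that of the clock and chaperone genes, and its part in their differences was not tested.

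The step from January to February, where the periods meet, held much of the difference for several genes named above. There fshb differed by 0.91 (adjusted p = 0.518), cyp19b by 0.66 (adjusted p = 0.553), slc16a1 by -1.29 (adjusted p = 0.518) and tef LOC101164258 by -0.41 (adjusted p = 0.518). The January step was small for cyp19b, slc16a1 and tef, at 0.01, 0.11 and -0.06. For fshb it was 0.34 ± 0.29, larger than its March step of 0.15 ± 0.29. Across genes this step had a correlation of 0.13 between winters, with 53.9% of genes of the same sign, against 0.357 for the January step and 0.317 for the March step. In the first winter cyp19b, slc16a1 and lhb had most of their difference by February, and in the second by March. For lhb the February 2017 value is a mean of libraries at 4.88 and 17.12 FPKM, so its timing in the second winter is unsure.

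**Figure D5:**
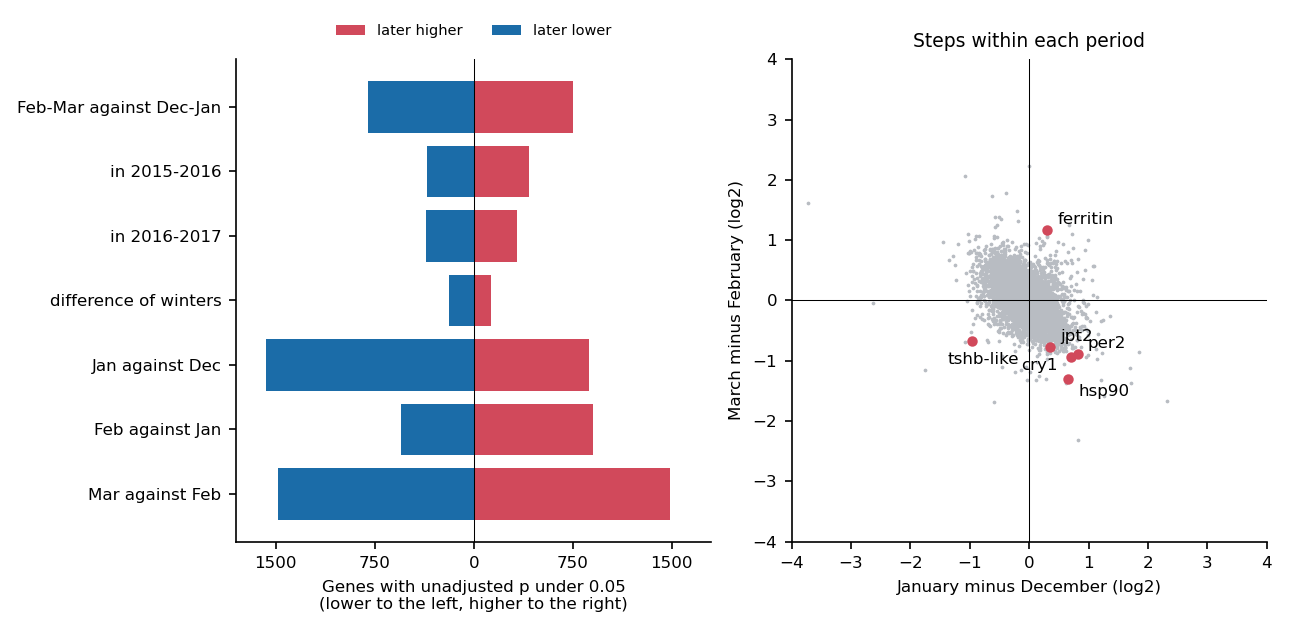
Left, number of genes at an unadjusted p under 0.05 in each comparison, those lower at the later time in blue and those higher in red (for the difference of winters, lower or higher in the second), with 2971 in all for March against February. Right, January minus December (horizontal axis) against March minus February (vertical axis) on the log2(FPKM + 1) scale, 1 point per gene for 16232 genes, with named genes marked; points run from the upper left to the lower right (r = -0.533), with cry1, per2 and HSP 90-alpha high in January and low in March.

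A slope on calculated day length over the 8 dates, added after the data were seen, called 2 genes (0.0123%). At an unadjusted p under 0.05 it gave 1025 genes higher with longer days (6.31%) and 1185 lower (7.3%). The gene for the middle subunit of ferritin, LOC101171335, an iron storage protein, stood at 4.95, 6.32, 16.8 and 23.5 FPKM in the first winter and at 7.24, 8.7, 10.6 and 38 in the second. It rose by 0.95 ± 0.09 on the log2 scale for each added hour of day (adjusted p = 0.0375 by limma). Between periods its difference was 1.45 ± 0.33, with no overlap of date means and an adjusted p of 0.419. The uncharacterized gene LOC101167933 fell by 0.58 ± 0.06 per hour (adjusted p = 0.0386 by limma), from 3.56 and 2.48 FPKM in December to 0.66 and 0.55 in March. Its libraries of a date spread widely, at 0.53 and 4.0 FPKM in February 2016 and 5.26 and 0.51 in January 2017. The standard error, taken from date means, does not show that spread. A slope on any quantity that grew with the date would be close to this one.

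Some further genes had small unadjusted p between the periods and were chosen after their values were seen. A Krueppel-like factor 11 gene, LOC101171127, a transcription factor, had the smallest p of all genes. It stood at 0.21 to 0.595 FPKM on the midwinter dates and at 3.09, 1.29, 3.6 and 3.83 in February and March (1.42 ± 0.19, adjusted p = 0.403). It was called by limma without both March 2016 libraries (1.63 ± 0.13, adjusted p = 0.0282) and in the random effect model of date (adjusted p = 0.00532). The range was 0.00158 to 0.858 over its 32 alternatives, the lowest from the fit that treats libraries of a date as independent. The coagulation factor XIII A chain gene f13a1 stood at no more than 0.05 FPKM on every midwinter date, and at 2.84, 12.7, 0.125 and 6.87 in late winter. Both March dates were the highest (2.09 ± 0.58, adjusted p = 0.461).

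The receptor gene erbB-3 (LOC101172978), which receives neuregulin signals in glia, stood at 5.8 to 9.18 and 9.66 to 20.8 FPKM (0.72 ± 0.12, adjusted p = 0.403). The chromatin protein gene hmga1 stood at 13.5 to 14.7 and 18.2 to 25.8 FPKM (0.54 ± 0.11), and the lipase gene lipg differed by 0.61 ± 0.12. The apolipoprotein C-I gene LOC101162068 stood at 46.9 to 69.2 and 61.5 to 139.7 FPKM (0.98 ± 0.23). Among those lower in late winter, ass1, of arginine synthesis, stood at 90.4 to 113 and 69.9 to 89.4 FPKM (-0.37 ± 0.07, adjusted p = 0.403). The selenium carrier gene selenop stood at 216 to 272 and 186 to 203 FPKM (-0.31 ± 0.07). The desmosome gene pkp1 (-0.48 ± 0.09), mvp (-0.46 ± 0.09) and ahnak (-0.38 ± 0.08) were also lower. The date means of the periods overlapped for mvp and the apolipoprotein gene and for none of the others in this paragraph. For both genes the overlap was only between dates of different winters.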

How the data were processed

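Poly-A RNA of the block was sequenced in strand-specific libraries with paired reads of 100 bases, per the labels' protocols. Bowtie2 2.2.5 and RSEM 1.2.12 are named in the submitters' processing notes, with no role for either, and no genome build is given in the sources used here. The authors deposited FPKM values for 23455 genes, 1 column per library, and no further scaling is stated. Counts were not used here, so depth is known only in relative terms. It was read from 121 genes with low values in regular steps, where 79.1% of 2147 values lay within 10% of a whole multiple of the gene's step.

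From these values log2(FPKM + 1) was computed, and averaged over both libraries of each date. The 16232 genes that averaged 1 FPKM or more over the 16 libraries were tested with limma 3.58.1 (R 4.3.3). The fit used a variance trend and Benjamini-Hochberg adjustment across these genes at a threshold of 0.05. Late winter was compared with midwinter with the winter as a term, then in each winter, between winters, and for each monthly step. The models were checked on simulated data. Day length was calculated from date and latitude. Gene names come from the deposited table, and 21908 identifiers were found in a RefSeq table used for names only.

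The comparison, the 35 gene lists and the naming rule were chosen with earlier results of these data known. The rule names a fixed set of hormone, photoperiod and clock genes whatever their result, the largest changes among called genes (here none), and at most 4 members of a list, those smallest in p. Exceptions, chosen after their values were seen, are gnrh2, pax7, tob1, the HSP 90-alpha and heat shock cognate 70 genes, and the genes of the last 3 paragraphs of the results. The tef copy LOC101159928 and the gene with the symbol hlf are also named outside the rule. Alternatives were another pseudocount, other filters and scalings, other models, and each library and each date left out.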

Additional observations from a re-analysis of the deposited data

Results flagged for a closer look

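In 4 genes named in the text, 1 late winter date stood apart from the other 3, by Dixon's gap test at the 95% level. Chance flags about 1 in 20 groups, and 226 groups of 4 dates were tested here. The gene with the symbol per2 stood at 8.24 FPKM in February 2017 against 5.86, 5.93 and 6.12 on the other dates. The lactate dehydrogenase B gene LOC101165776 stood at 208 FPKM in February 2017 against 247, 248 and 249. The collagen gene col1a2 stood at 15.4 FPKM in March 2017 against 10.9, 10.9 and 11.1. The apolipoprotein C-I gene LOC101162068 stood at 61.5 FPKM in February 2017 against 128, 138 and 139.7. Without both February 2017 libraries the apolipoprotein gene differed by 1.25 ± 0.13 between periods, against 0.98 ± 0.23 with them.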

How the results depend on the processing

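For late winter against midwinter 0 genes were called with no winter term, over all 25 dates, with a pseudocount of 0.1, with no filter or a mean of at least 5 FPKM, and under quantile or median ratio scaling. With the date as a random effect 10 were called, and with the slope on day length, added after the data were seen, 2. Leaving out a library or a date gave 0 to 21 calls, with 1 without March 2016 and 21 without February 2017. In the first winter leaving out gave 0 to 1 calls and no filter 3. For January against December the random effect gave 397 and leaving out 0 to 1; for February against January 4 and 0 to 9; for March against February 1097 and 0 to 62, and all 25 dates gave 2. The cause of these moves was not tested.

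A replicate block was fitted over the 16 libraries as separate samples. It called 293 genes between the periods, 14 and 1 in the first and second winter, and 1169, 10 and 2081 for the monthly steps. The numbers 1 and 2 do not pair libraries: over 28 pairs of dates the deviations of same-numbered libraries correlated between -0.0709 and 0.127, with 3 pairs over 0.1. These fits treat libraries of the same date as independent.

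For 111 named genes, 3692 of 3748 alternative values kept their direction and their side of the threshold, and 52 passed the threshold. The other 4 changed sign: smtl (LOC100049402) without January 2017 (-0.29 to 0.23 over all libraries and dates left out), kiss-2 without January 2017 (-0.35 to 0.01), gnrh1 without March 2016 (-0.18 to 0.15) and gnrh3 without March 2017 (-0.92 to 0.03). Most of the 52 that passed came from the fit with a replicate block, which treats libraries of a date as independent. The rest came from the random effect fit, from a date left out or from the slope on day length. With 4 dates a period and 2 per winter, differences smaller than the spread between months could not be detected, and larger ones could be missed. Even fshb, at 1.15 ± 0.21 without overlap of date means, did not pass (adjusted p = 0.403 by limma). The lack of calls therefore does not show that large differences are absent. Counting error is unknown because no counts were used.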
